A study of Mus musculus with 6 samples.

Results

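The genes described here encode the subunits of voltage-gated sodium and calcium channels. The rule for membership used the gene name, taking the protein-coding genes of the deposited table whose symbol begins with Scn and a digit or with Cacna, Cacnb or Cacng. This gave 33 of the 15388 genes in the table, 11 of sodium channels and 22 of calcium channels. All 33 passed the filter on low values and were among the 15344 genes tested. Of the 40 genes of these names in the mouse annotation, 7 were not analysed here: Scn4a, Scn10a, Scn11a, Cacna1f, Cacna1s, Cacng1 and Cacng6.

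RNA was collected from the hippocampus of 3 mice, numbered 201, 207 and 208, that carried both Cx3cr1-Cre/Ert2+ and NuTRAP+. Tamoxifen was given by injection on 5 consecutive days at about 3 months of age. The drug activates a Cre recombinase placed under Cx3cr1, a gene that is active in microglia and other macrophages, and recombination then puts a GFP-tagged protein on the ribosomes of those cells. By translating ribosome affinity purification (TRAP), each mouse gave an Input library, from cleared homogenate of all cells, and a Positive library, from RNA bound to ribosomes that an anti-GFP antibody had captured, so that the 6 libraries shared genotype and treatment and differed in fraction. No library from animals without Cre was analysed here.

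Voltage-gated sodium channels open on depolarization and carry the upstroke of the action potential. Each has a pore-forming alpha subunit, which accompanying beta subunits modulate and help to place in the membrane. Voltage-gated calcium channels have a pore-forming alpha1 subunit of the Cav1, Cav2 or Cav3 class, and in Cav1 and Cav2 channels also a cytoplasmic beta and an extracellular alpha2delta subunit. They couple electrical activity to transmitter release, firing patterns and transcription. Several genes named as gamma subunits encode TARPs, proteins that escort AMPA-type glutamate receptors. In the hippocampus these channels are best known from neurons, while microglia are not known for firing sodium action potentials.

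Promoters are shown for 4 genes that the results return to: Scn1a and Scn9a, which lie next to each other on chromosome 2 and had different fold changes, Cacna1b, the calcium channel alpha1 gene with the smallest adjusted p-value, and Cacng7, which fell while its neighbour Cacng8 was not called. Each sequence is from RefSeq on build GRCm38.p6, runs from 250 bases before to 50 bases after an annotated start, and is written 5′ to 3′ in the direction of the gene. Capitals mark GC boxes (GGGCGG on either strand), the binding motif of Sp1-type factors.

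Scn1a (chr2:66440788-66441087, minus strand): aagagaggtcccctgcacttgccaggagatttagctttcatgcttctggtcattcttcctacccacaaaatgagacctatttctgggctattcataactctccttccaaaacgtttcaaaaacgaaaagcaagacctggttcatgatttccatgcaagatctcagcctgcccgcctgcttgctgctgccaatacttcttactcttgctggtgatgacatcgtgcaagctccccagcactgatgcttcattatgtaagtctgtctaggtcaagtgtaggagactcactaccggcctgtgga

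Scn9a (chr2:66634913-66635212, minus strand): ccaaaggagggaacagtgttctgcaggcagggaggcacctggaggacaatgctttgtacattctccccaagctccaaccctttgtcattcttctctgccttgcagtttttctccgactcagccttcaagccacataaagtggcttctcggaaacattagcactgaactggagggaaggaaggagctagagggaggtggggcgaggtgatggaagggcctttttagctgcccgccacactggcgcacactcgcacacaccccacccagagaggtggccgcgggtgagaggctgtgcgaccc

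Cacna1b (chr2:24763103-24763402, minus strand): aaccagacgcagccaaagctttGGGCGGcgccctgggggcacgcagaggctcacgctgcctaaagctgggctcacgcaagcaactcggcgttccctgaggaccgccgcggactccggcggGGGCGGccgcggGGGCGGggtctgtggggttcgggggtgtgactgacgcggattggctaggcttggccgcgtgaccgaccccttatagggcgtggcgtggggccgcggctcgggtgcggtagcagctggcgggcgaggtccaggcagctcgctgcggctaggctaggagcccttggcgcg

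Cacng7 (chr7:3332575-3332874, plus strand): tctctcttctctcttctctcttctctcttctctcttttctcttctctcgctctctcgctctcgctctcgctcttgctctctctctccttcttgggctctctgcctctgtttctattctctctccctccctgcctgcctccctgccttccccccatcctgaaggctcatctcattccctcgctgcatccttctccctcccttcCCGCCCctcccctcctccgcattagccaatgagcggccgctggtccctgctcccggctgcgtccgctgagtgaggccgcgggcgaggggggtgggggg

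The RefSeq table held 35 promoters for 24 of the 33 genes. A GC box was present in 14 of the 35 (40%), against 35.7% of all 32851 promoters of the same length. The Cacna1b promoter held 3 boxes and that of Cacng7 held 1, whereas the Scn1a and Scn9a promoters held 0. A TATA box (TATAAA on either strand) was found in 2 of the 35 (5.71%), against 13.6% of all promoters. The CRE (TGACGTCA), a palindrome, was in 0 of the 35 and in 1.79% of all promoters. The PU.1 site (GAGGAAGT on either strand), the motif of a factor that microglia and macrophages use, was also in 0 of the 35 and in 3.2% of all promoters. The RE1 element, the long motif of the neuronal-gene repressor REST, matched in 0 of the 35 and in 0.0639% of all promoters. Between members called lower and those not called, a GC box was present in 11 of 24 promoters (45.8%) and 3 of 11 (27.3%). These matches describe the letters in these windows and were not tested.

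The 6 libraries held 14879734 to 17757918 reads over the table, and reads were scaled throughout by the median-of-ratios size factor of each library. All 10 microglial markers were higher in Positive than in Input, with a median log2 fold change of 4.63 and summed scaled reads of 4782 to 5135 in Input and 94225 to 138873 in Positive. RNA of other cells remained in Positive: the 10 neuronal markers summed to 104440 to 112598 scaled reads in Input and 106794 to 124065 in Positive. Both fractions of an animal came from the same homogenate, so a fold change compares captured RNA with the RNA present before capture. Each library was scaled by its own size factor, so the compared levels are relative to the other RNA of the library. A fold change is thus not the fraction of the RNA of a gene that was captured. It does not measure the number of cells of a type or the RNA per cell. How RNA of other cells came to be in Positive was not tested.

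Transcripts of the sodium and calcium channel subunits were lower in Positive than in Input, by a modest amount and in most members. Of the 33 genes, 20 were called lower and 0 higher at an adjusted p-value under 0.05 in edgeR's quasi-likelihood test of 3 against 3 libraries, where 22% of all genes tested were called lower, 24% higher and 46% in either direction. With the animal as a block 22 were called lower (23.9% of all genes), and with scaling to the total count 24 (27.9% of all genes). With limma on the deposited log2 values 14 were called lower, and Scn2a, Cacna2d1, Cacnb2, Cacnb3, Cacnb4 and Cacng5 were not called. Over all genes, limma called 6343 in either direction (49.6% of them higher), against 7054 in the edgeR fit (52.2% higher). In the unpaired edgeR fit none of the 33 members was higher at an unadjusted p-value under 0.05 either, and DESeq2 and limma also called 0 members higher. The median log2 fold change of the 33 genes was -0.32, against -0.01 over all genes tested, and 31 of the 33 values were below 0. In 27 members Positive was below Input in each of the 3 animals, a count for which the share over all genes was not computed. All 3 Positive libraries lay below all 3 Input libraries in 20 members, against 27.6% of all genes tested. These 20 were not exactly the 20 genes called: Cacnb3 was called although its libraries overlapped, and Cacna1a was not called although they did not.

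The members took 0.435% to 0.439% of the reads of each Input library. Their share in Positive was 0.324% in animal 201, 0.316% in 207 and 0.369% in 208. Every Positive library was thus below every Input library. Summed over members, scaled reads ran from 67413 to 68423 in Input and from 52234 to 60777 in Positive. The Positive fraction still held transcripts of all 33 genes.

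**Figure D1:**
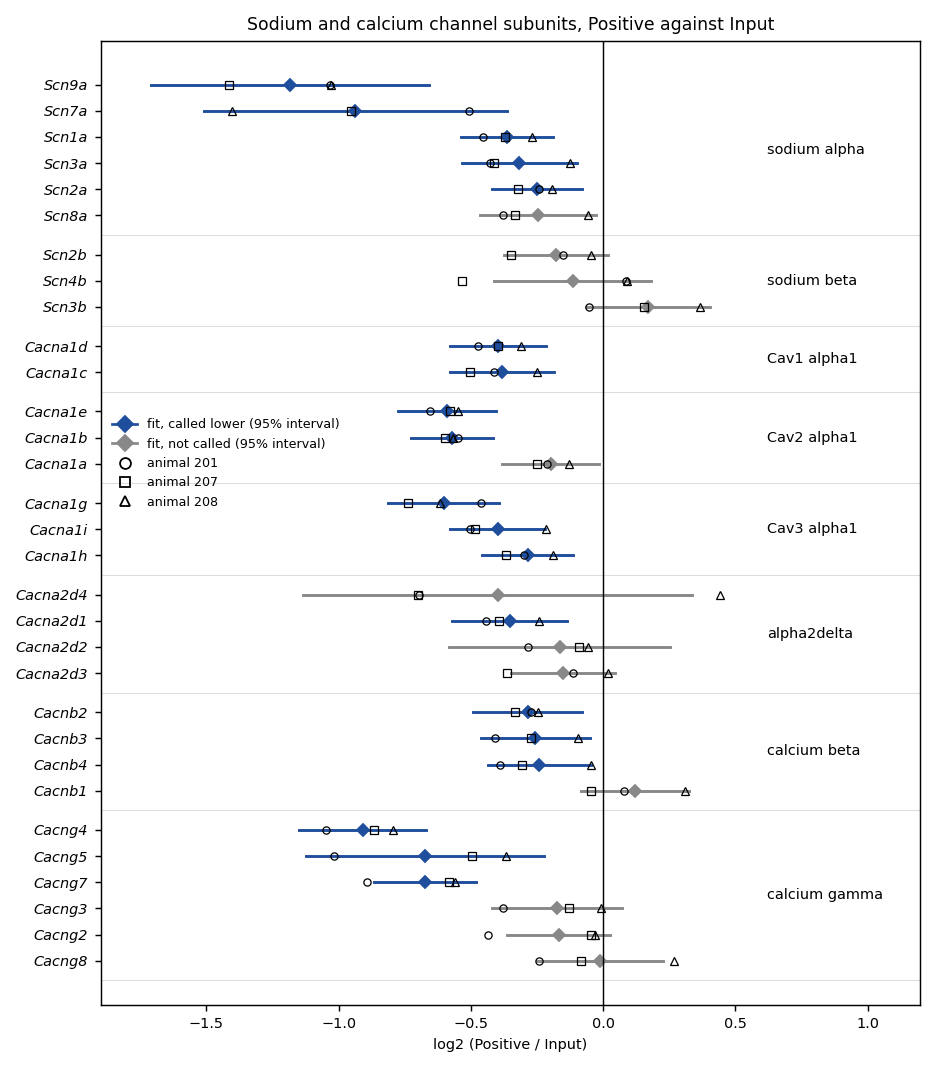
Log2 fold change of 31 subunit genes, Positive over Input, grouped by role. Diamonds and bars give the edgeR estimate and its 95% interval (blue, called lower; grey, not called), and open symbols give the ratio within animals 201, 207 and 208. The estimates run from -1.18 for Scn9a to 0.17 for Scn3b, and 29 of the 31 shown lie left of 0.

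Among the sodium channel alpha subunits, 5 fell in Positive: Scn1a, Scn2a, Scn3a, Scn7a and Scn9a. The 3 alpha subunits with the most reads per kilobase of exon were Scn8a, Scn2a and Scn1a, which encode the neuronal pores Nav1.6, Nav1.2 and Nav1.1. Scn9a and Scn7a stood at the other end, with the lowest reads of the group and the lowest fold changes. Scn9a, which encodes Nav1.7, a channel best known from sensory neurons, had 58.1, 61.1 and 62.4 scaled reads in the Input libraries of animals 201, 207 and 208. In Positive it had 28.0, 22.3 and 30.1 in the same order. Every Positive library was thus near or below 30 reads and every Input library near 60. The log2 fold change was -1.18 ± 0.24 (SE, n = 3 per fraction), with an adjusted p-value of 0.00162. Scn7a encodes Nax, an atypical member of the family linked to sensing of sodium in body fluids. It had 53.0, 60.1 and 56.6 scaled reads in Input and 37.1, 30.6 and 20.8 in Positive. The fractions did not overlap, although animal 208 showed a larger fall than animal 201. The change was -0.94 ± 0.26, with an adjusted p-value of 0.0116. Neither of these genes reached 100 scaled reads in every library of a fraction, so both went untested under the stricter filter at that level.

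The abundant alpha subunits moved less. Scn2a had 4323, 4639 and 4682 scaled reads in Input and 3659, 3714 and 4097 in Positive, without overlap. Its log2 fold change was -0.25 ± 0.08, with an adjusted p-value of 0.0199. This call was lost without the Input library of 207 (adjusted p = 0.0786) or 208 (0.0965) and without the Positive library of 201 (0.0647) or 207 (0.0618). Scn3a, the Nav1.3 gene that is most active early in development, had 679.8, 694 and 674 scaled reads in Input and 506, 521 and 617 in Positive. All 3 Positive libraries were again lower, that of animal 208 by the least. Its change was -0.32 ± 0.10, with an adjusted p-value of 0.0207, and its call was lost without the same 4 libraries as that of Scn2a (adjusted p = 0.0572 to 0.0750). Scn1a fell by 0.36 on the log2 scale (SE 0.08, adjusted p = 0.00275), and kept its call when any library was left out.

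Scn8a was the alpha subunit with the highest mean scaled reads. It had 5964, 5443 and 5927 scaled reads in Input and 4590.2, 4322 and 5698 in Positive. The Positive library of animal 208 lay within the range of the Input libraries, while the other 2 lay below it. The change of -0.25 ± 0.10 did not pass the threshold (adjusted p = 0.0638), with a 95% interval from -0.47 to -0.03. With the animal as a block it did (log2 fold change -0.26, adjusted p = 0.0211), and without the Positive library of 208 it was -0.37 (adjusted p = 0.000793).

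Of the sodium channel beta subunits, Scn2b, Scn3b and Scn4b were not called. Scn3b had 2991, 2921 and 3139 scaled reads in Input and 2885, 3251 and 4051 in Positive. Its Positive libraries spread to both sides of the Input range, with animal 208 highest. Its value of 0.17 ± 0.11 was the highest of the family and was not called (adjusted p = 0.216), but it was called higher without the Positive library of animal 201 (log2 fold change 0.27, adjusted p = 0.0439). Scn2b had a log2 fold change of -0.18 ± 0.09 and Scn4b of -0.12 ± 0.14. The call for Scn2b was gained without the Positive library of 208 (-0.27, adjusted p = 0.00962).

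**Figure D2:**
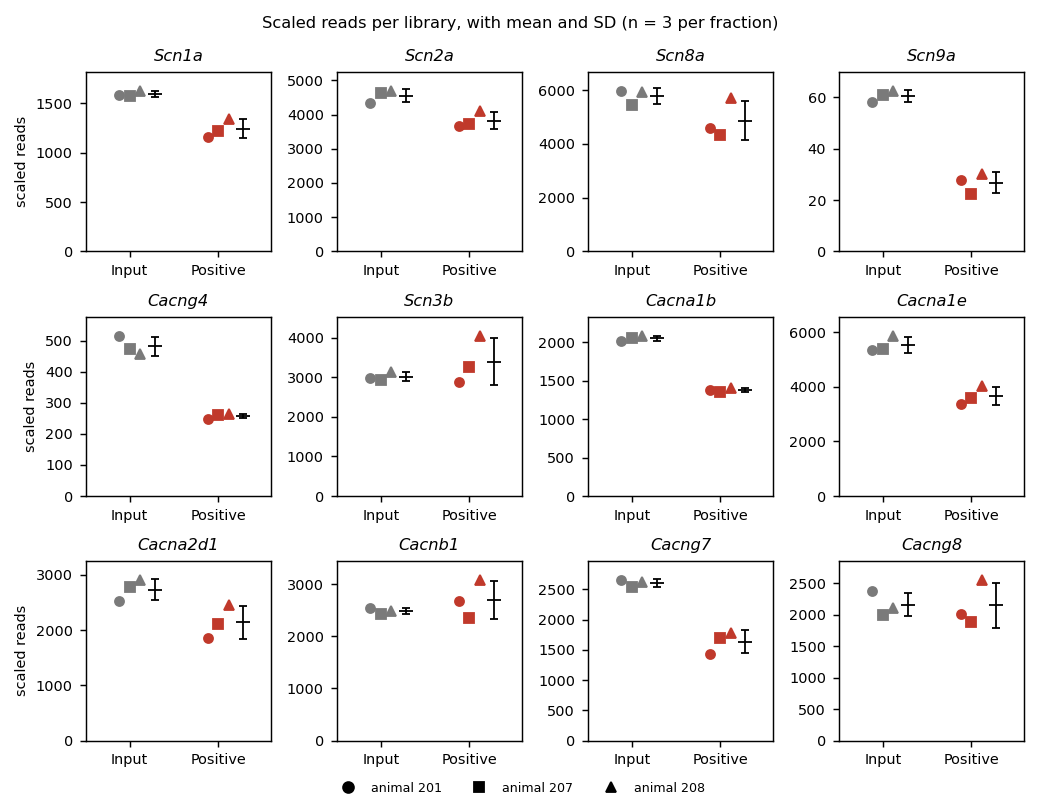
Scaled reads of 12 subunit genes in each library, Input in grey and Positive in red, with the animal given by the symbol and the mean and SD (n = 3) beside the points. Scn9a, Cacng4, Cacna1b, Cacna1e and Cacng7 show no overlap between fractions, whereas in Scn8a, Scn3b, Cacnb1 and Cacng8 the Positive library of animal 208 is the highest of the 3 and the fractions overlap.

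All 8 alpha1 subunits of calcium channels had every Positive library below every Input library, and 7 of the 8 were called lower. Cav1 channels, the L-type channels that couple activity to transcription, were represented by Cacna1c and Cacna1d, and both fell. Cacna1c had 1825, 1709 and 1815 scaled reads in Input and 1372, 1207 and 1527 in Positive. Even the lowest Input library was above the highest Positive library. Its log2 fold change was -0.38 ± 0.09, with an adjusted p-value of 0.0043. Cacna1d fell by 0.40 (SE 0.08, adjusted p = 0.00201).

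Cav2 channels are the presynaptic channels that trigger transmitter release, and their group had the lowest median of all, -0.57. Cacna1e, the R-type gene, had 5338, 5389 and 5879.5 scaled reads in Input and 3389, 3608 and 4024 in Positive. The Positive mean was 66.4% of the Input mean, and the fractions were far apart. The change was -0.59 ± 0.09, with an adjusted p-value of 0.000107. Cacna1b, the N-type gene, had 2013, 2051 and 2083 scaled reads in Input and 1376, 1356 and 1406 in Positive. Its libraries were tight in both fractions, and the ratios within animals were -0.55, -0.60 and -0.57. The change was -0.57 ± 0.07, with an adjusted p-value of 3.17e-05. Cacna1a, the P/Q-type gene, had 2207, 1968 and 1929 scaled reads in Input and 1903, 1655 and 1766 in Positive. The lowest Input library was only just above the highest Positive library. Its change of -0.20 ± 0.08 was not called (adjusted p = 0.0722), but was with the animal as a block (adjusted p = 0.0381) and without the Positive library of 201 (adjusted p = 0.0443).

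Cav3 channels are the T-type channels, which open near rest and support burst firing, and all 3 fell. Cacna1g had 1347, 1376 and 1212 scaled reads in Input and 978, 824 and 790.2 in Positive, without overlap. Its change was -0.60 ± 0.10, with an adjusted p-value of 0.000257. Cacna1h had 2178, 2062 and 1944 scaled reads in Input and 1772, 1598 and 1705 in Positive. Here too the fractions did not overlap, but the gap was smaller than for Cacna1g. The change of Cacna1h was -0.29 ± 0.08, with an adjusted p-value of 0.0101. Cacna1i fell by 0.40 (SE 0.08, adjusted p = 0.00183).

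Of the auxiliary alpha2delta subunits, which raise the number of channels at the membrane, 1 of 4 fell. Cacna2d1 had 2526, 2773 and 2899.8 scaled reads in Input and 1857, 2109 and 2452 in Positive. In both fractions animal 208 was highest, and the fractions did not overlap. The change was -0.35 ± 0.10, with an adjusted p-value of 0.012, and was not called without the Input library of 208 (adjusted p = 0.0632). Cacna2d2, Cacna2d3 and Cacna2d4 were not called, with changes of -0.16 ± 0.19, -0.15 ± 0.09 and -0.40 ± 0.34. Cacna2d3 was called without the Positive library of 208 (adjusted p = 0.0321). Cacna2d4, known from the retina, had 20.5 to 54.1 scaled reads per library, and its interval ran from -1.13 to 0.34.

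Beta subunits, which bind the alpha1 subunit inside the cell and bring it to the surface, fell in 3 of 4 genes and by small amounts. Cacnb3 had 3846, 3283 and 3613 scaled reads in Input and 2896, 2715 and 3380.2 in Positive, and the Positive library of 208 overlapped the Input range. Its change was -0.26 ± 0.09 (adjusted p = 0.0418). Cacnb4 had 2199, 2200.1 and 2185 scaled reads in Input, a very narrow range, and 1677, 1779 and 2117 in Positive. Its change was -0.24 ± 0.09 (adjusted p = 0.0436). Cacnb2 had 866, 994 and 1003 scaled reads in Input and 717, 789 and 845 in Positive, with no overlap, and its change was -0.28 ± 0.10 (adjusted p = 0.0269). The 3 calls depended on single libraries. That of Cacnb4 was lost without any single library other than the Positive library of 208 (adjusted p up to 0.157). Those of Cacnb2 and Cacnb3 were lost without the Input library of 208 (adjusted p = 0.115 and 0.119), the Positive library of 201 (0.0968 and 0.102) or the Positive library of 207 (0.0570 and 0.155). Cacnb2 also lost its call without the Input library of 207 (0.101), and Cacnb3 without that of 201 (0.156). Cacnb1, the remaining beta subunit, was not called, with a change of 0.12 ± 0.09 and an interval from -0.08 to 0.33.

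In the gamma group, Cacng4, Cacng5 and Cacng7 fell, and Cacng2, Cacng3 and Cacng8 were not called. Cacng4, a TARP gene, had 516, 474 and 457 scaled reads in Input and 249, 259.5 and 263 in Positive. Positive was thus at 53.3% of the Input mean and the libraries of each fraction were close together. The change was -0.91 ± 0.11, with an adjusted p-value of 2.52e-05, the smallest of the family. Cacng7, also a TARP, had 2652, 2542 and 2631 scaled reads in Input and 1427, 1695 and 1785 in Positive, far below every Input library. Its change was -0.67 ± 0.09, with an adjusted p-value of 5.22e-05. Cacng5 had 303, 177 and 178 scaled reads in Input and 149, 126 and 138 in Positive. The Input library of animal 201 stood well above the other 2. Its change was -0.67 ± 0.21 (adjusted p = 0.0185), and without that library it was -0.37 and not called (adjusted p = 0.103), as it was not without the Positive library of 207 (adjusted p = 0.0623).

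Cacng2, the stargazin gene, had a change of -0.17 ± 0.09 and was called without the Positive library of 208 (adjusted p = 0.0433). Cacng3 had -0.17 ± 0.11. Cacng8, the TARP gene that is prominent in hippocampus, had -0.01 ± 0.11, with an interval from -0.25 to 0.23, so that changes as large as that of Cacng7 lie outside it.

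Cacng7 and Cacng8 lie in the same direction on chromosome 7, 22.5 kb apart (build mm10). In scaled reads, Cacng7 stood above Cacng8 in Input, with a log2 ratio of 0.16, 0.34 and 0.32 in animals 201, 207 and 208. In Positive the order was turned, with log2 ratios of -0.49, -0.16 and -0.51. The ratio therefore fell in all 3 animals, by 0.65, 0.50 and 0.83. Scn1a and Scn9a are neighbours on the minus strand of chromosome 2 with 39.2 kb between them. The log2 ratio of Scn1a to Scn9a in scaled reads was 4.72 ± 0.04 in Input and 5.54 ± 0.20 in Positive (SD, n = 3), and rose in each animal. In contrast, the neighbouring genes Scn2a and Scn3a kept nearly the same ratio, 2.74 ± 0.06 in Input and 2.81 ± 0.07 in Positive. Scn9a had only 22.3 to 30.1 scaled reads in Positive. Other neighbouring pairs changed as follows in animals 201, 207 and 208. The log2 ratio of Scn2b to Scn4b changed by -0.24, 0.19 and -0.14, and that of Cacna1c to Cacna2d4 by 0.30, 0.22 and -0.71. For Cacng4 to Cacng5 it changed by -0.03, -0.37 and -0.43, and for Cacna2d3 to Cacna1d by 0.36, 0.03 and 0.33. Differences between neighbours were described and not tested.

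Shares within each class of subunit show which members make up the class in each fraction. Reads were divided by the exon length of each gene and summed per class, so the values are shares of reads per kilobase. Among sodium alpha subunits the make-up hardly moved: Scn8a was 38.9% ± 1.62 of the class in Input and 39.7% ± 2.19 in Positive (SD, n = 3), Scn2a 37.9% ± 1.52 and 38.8% ± 1.33, and Scn1a 15.2% ± 0.04 and 14.3% ± 0.52. Neither of the first 2 shares separated the fractions.

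Among alpha1 subunits no gene exceeded 20% of the class in either fraction. Cacna1a rose from 14.4% ± 0.75 to 16.8% ± 0.82, Cacna1h from 17.0% ± 0.63 to 18.8% ± 0.51, and Cacna1b fell from 16.6% ± 0.63 to 15.02% ± 0.40, each without overlap between fractions. Of the calcium beta subunits, Cacnb1 made up 31.2% ± 0.68 in Input and 37.0% ± 1.24 in Positive and Cacnb3 50.7% ± 1.75 and 46.4% ± 0.16. In the gamma class Cacng7 led in Input (38.1% ± 1.78 against 32.7% ± 0.67 for Cacng8) and Cacng8 led in Positive (40.5% ± 2.59 against 29.8% ± 2.32). Cacng4 went from 4.80% ± 0.21 to 3.22% ± 0.28. A share can rise because other members fell, so these values rank the members of a class and are not changes in level. Summed per class, scaled reads per kilobase in Positive were 74.5% of those in Input for alpha1 and 80.1% for gamma subunits. They were 82.4% for sodium alpha, 84.2% for alpha2delta and 91.6% for calcium beta subunits.

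**Figure D3:**
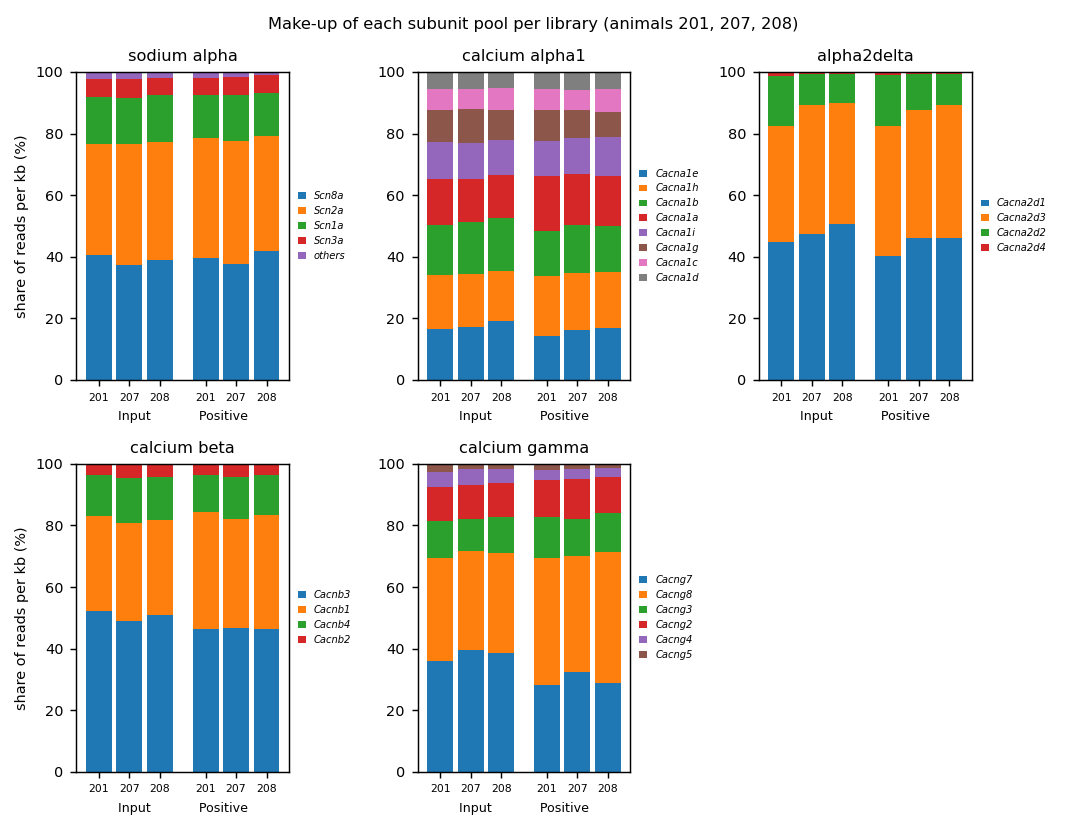
Share of each gene in the reads per kilobase of its subunit class, as a percentage, in the 3 Input and 3 Positive libraries, for 5 classes. Sodium alpha genes with few reads are drawn together as others. The sodium alpha bars look alike in both fractions, while Cacnb1 and Cacng8 take a larger share in Positive and Cacnb3 and Cacng7 a smaller share.

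The animals did not contribute alike. Over the 33 members the median log2 ratio of Positive to Input was -0.43 in animal 201, -0.37 in 207 and -0.19 in 208 (mean -0.33 ± 0.12, SD, n = 3). Animal 208 had the highest ratio of the 3 in 29 members, against 31.5% of all genes tested. The 10 neuronal markers had medians of 0.04, 0.03 and 0.25 in the same order, so these were also highest in 208. Microglial markers had medians of 4.55, 4.88 and 4.33, endothelial markers 2.21, 2.26 and 1.17, and astrocyte markers -0.01, -0.16 and -0.65. Without the Positive library of 208, 24 members were called lower in place of 20, while 7256 of all genes were called in either direction in place of 7054. The part of these marker levels in the result was not tested.

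Other cell types in the Input also moved. Of the 10 neuronal markers, Syn1 and Nefm were higher, 7 were not called, and Map2, which encodes a dendritic protein, was the gene called lower, with a log2 fold change of -0.56. Of 5 excitatory markers 2 were higher and 0 lower, and of 6 inhibitory markers 3 were higher and 1 lower, the last being Pvalb (-2.07). The 3 inhibitory markers that were higher were Vip (1.66), Gad2 (0.55) and Gad1 (0.34). With scaling to the total count the 2 excitatory markers, Prox1 and Camk2a, were not called (adjusted p = 0.0912 and 0.124), nor were they in some fits that left out a library (adjusted p up to 0.147 without the Input library of 201 for Prox1 and 0.219 without the Input library of 207 for Camk2a). Syn1 and Nefm were not called without the Input library of 207 (0.0632) and of 208 (0.0724) respectively. All 7 oligodendrocyte markers were lower, with a median of -2.44 and summed scaled reads of 48887 to 55621 in Input and 11104 to 14602 in Positive. All 5 markers of oligodendrocyte precursors were lower as well, with a median of -1.39 and sums of 2112 to 2196 in Input and 629.9 to 858 in Positive. Of 7 astrocyte markers 2 were lower and 1 higher (sums 59436 to 63807 and 57622 to 68877), the latter, Slc1a2, not with scaling to the total count (adjusted p = 0.103). All 6 endothelial markers were higher (1283 to 1672 and 3782 to 7429), of 6 mural markers 1 was higher and 0 lower (2632 to 2789 and 1798 to 3538), and of 5 fibroblast markers 3 were lower (1581 to 2088 and 748 to 1291). Single libraries decided some of these calls as well, and the fit with the highest adjusted p-value is given. Slc1a2 (0.151) and Col1a1 (0.253) were not called without the Input library of 207. Gfap (0.0692) was not called without the Input library of 208, nor Myh11 (0.0891) without the Positive library of 207. The libraries of Col1a1 also overlapped between fractions. No defining marker of any list was at 0. The part of each of these cell types in the change of the channel genes was not tested.

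**Figure D4:**
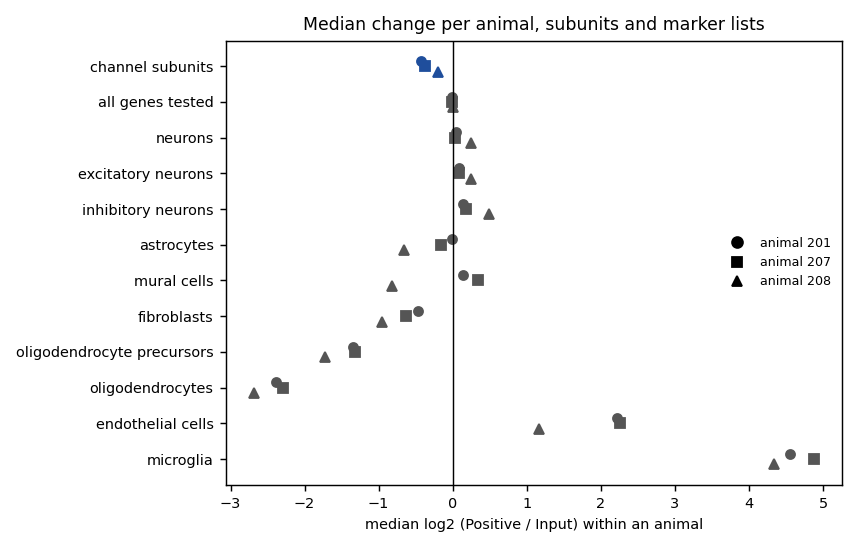
Median log2 ratio of Positive to Input within each animal for the 33 channel subunits, all genes tested and 10 lists of cell type markers. The channel subunits lie at -0.43, -0.37 and -0.19, below the neuronal markers of the same animals and above those of oligodendrocytes and their precursors.

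Across 5 lists of genes related to these channels, 49 were tested, of which 13 fell and 13 rose (26.5% each way). These shares lie near the 22% and 24% of all genes tested. With scaling to the total count 19 fell and 11 rose, and Erc2 (adjusted p = 0.119) and Orai3 (0.0529) were not called. Sodium channel partners include ankyrins, a spectrin and the FGF homologous factors that bind the tails of the channels. Of these partners, 2 of 12 fell and 3 rose. Fgf12, the lowest, had a log2 fold change of -0.28 ± 0.09 (adjusted p = 0.0226), and Nfasc was the other that fell. Ank2, the highest, had 8734, 7600.1 and 8119 scaled reads in Input and 13403, 12129 and 10683 in Positive, with no overlap. Its change was 0.57 ± 0.10, with an adjusted p-value of 0.000457, and Ank3 rose with it. Of 15 partners of calcium channels, 5 fell and 3 rose. Cabp1, a calcium-binding regulator of Cav channels, fell by 0.64 (SE 0.11, adjusted p = 0.000595), beside Stac2, Rims1, Akap7 and Tspan13. Rrad, a small GTP-binding protein that inhibits these channels, had 40.7, 27.3 and 18.9 scaled reads in Input and 93.7, 87.4 and 74.8 in Positive, and rose by 1.55 ± 0.28 (adjusted p = 0.000587). Erc1 and Erc2, proteins of the presynaptic active zone, also rose. Single libraries decided some of these calls, and the fit with the highest adjusted p-value is given for each. Fgf12 was not called without the Positive library of 207 (adjusted p = 0.0962), Nfasc without the Input library of 201 (0.0650), Ank3 and Erc1 without the Input library of 207 (0.0786 and 0.05003), Akap7 and Tspan13 without the Input library of 208 (0.149 and 0.0874) and Erc2 without the Input library of 201 (0.118). In this paragraph and the next, genes beyond the highest and lowest of each list were named after their values were seen.

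Among leak and endolysosomal channels, Unc79 (-0.44 ± 0.09, adjusted p = 0.00174) and Unc80, companions of the sodium leak channel, fell, while the pore gene Nalcn was not called (-0.09 ± 0.08). Hvcn1, the voltage-gated proton channel of phagocytes, had 44.9, 48.8 and 51.9 scaled reads in Input and 869, 1066 and 734 in Positive. It rose by 4.19 ± 0.17 (adjusted p = 6.77e-10), close to the microglial markers, and Tpcn1 was the other of the 7 genes that rose. Of 11 genes of calcium release and store-operated entry, 3 fell, 4 rose and 4 were not called. The ryanodine receptors fell, Ryr1 by 0.95 (SE 0.17, adjusted p = 0.00051), Ryr3 by 0.88 and Ryr2 by 0.56 on the log2 scale. Itpr3 had 75.1, 64.0 and 53.2 scaled reads in Input and 303, 319 and 209.6 in Positive, and rose by 2.11 ± 0.20 (adjusted p = 2.71e-06). Itpr2 rose by 1.43, the store-operated pore gene Orai1 by 1.35 and Orai3 by 0.34, whereas Itpr1, Stim1, Stim2 and Orai2 were not called. Of 4 sodium channels that are not gated by voltage, Asic2 fell (-0.26 ± 0.09, adjusted p = 0.0356) and Asic4 rose (0.92 ± 0.13, adjusted p = 0.000107). Without the Positive library of 207, Asic2 (adjusted p = 0.129) and Orai3 (0.0772) were not called.

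**Figure D5:**
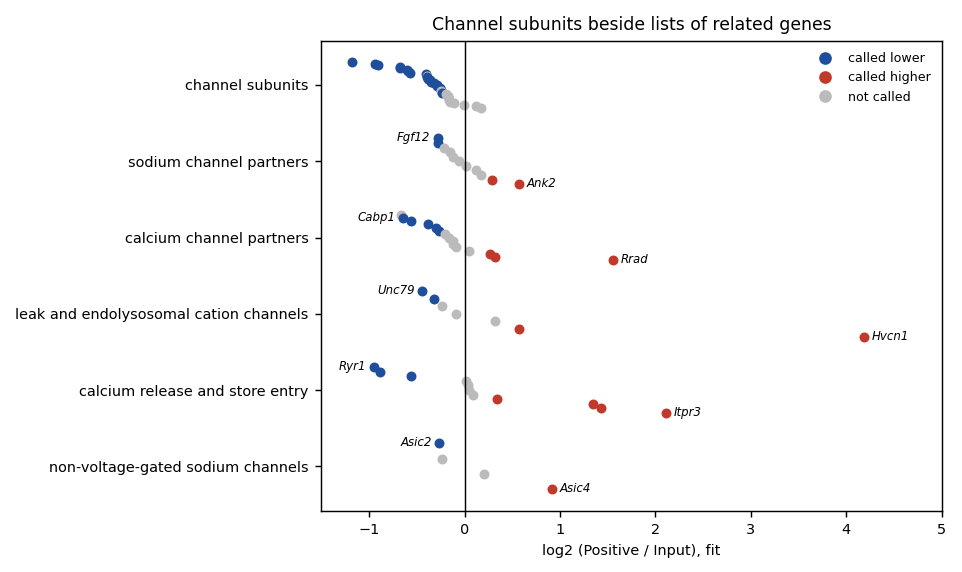
Log2 fold change, Positive over Input, of 31 channel subunits and of 5 lists of related genes (blue, called lower; red, called higher; grey, not called), with the lowest and highest called gene of each list named. None of the subunits was called higher, while each related list has genes called in both directions, from Ryr1 at -0.95 to Hvcn1 at 4.19.

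The subunit genes are long, with a median of 8.96 kb of exon against 4.33 kb over 15326 genes tested that had a length. Across the 33 members the fold change was weakly related to exon length (Spearman rho -0.18), and across all genes rho was 0.07; genes share libraries and are not independent, so these are descriptions. The alpha subunit genes Scn3a, Scn2a, Scn1a, Scn9a and Scn7a form a cluster on chromosome 2 between positions 65457118 and 66784914 (build mm10). All 5 were called lower, as were 20 of the 33 members and 22% of all genes tested. The calls of Scn2a and Scn3a were lost without the Input library of 207 or 208 or the Positive library of 201 or 207. Scn2a was also not called with limma, and Scn7a and Scn9a went untested under the stricter filter. Whether position played a part was not tested.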

How the data were processed

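Poly(A)-selected directional libraries of 3 Input and 3 Positive samples were sequenced as read pairs. The authors aligned reads to mm10 in Strand NGS, counted them per Ensembl gene and kept genes with at least 20 reads in all libraries of a fraction. The deposited raw columns hold expected counts, which need not be whole. The deposited normalized columns hold log2 values after DESeq scaling and were used in an alternative. Reads carried no molecular identifiers.

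Expected counts were rounded and tested with edgeR 4.0.16 (quasi-likelihood, median-of-ratios scaling, R 4.3.3) on 15344 genes above 20 scaled reads in all libraries of Input, of Positive or of both. The fit was unpaired, as in the study, with Benjamini-Hochberg adjustment over all genes tested and a threshold of 0.05. Fold changes within an animal used a pseudocount of 1. Alternatives used DESeq2 1.42.0 and limma 3.58.1. The numbers pair the samples because each animal gave both fractions, and deviations from the group means of the same animal had correlations of 0.19, 0.058 and 0.12 across genes. Between different animals these correlations ran from -0.14 to 0.032, so that of animal 207 stood little above them.

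Members were named by role, and some genes that this rule took are not reported here. Values of all libraries were given for the 6 highest and 6 lowest fold changes among members called and for the member with the most reads of each role, and from each list of related genes the highest and lowest called gene was named. Members and lists were chosen with earlier results of these data known. Exon lengths are unions over the GENCODE annotation of GRCm38. Counting used strand, so antisense genes were kept apart. Cacng8 shares 91 bases with a small gene on its own strand.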

Additional observations from a re-analysis of the deposited data

How the results depend on the processing

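The number of members called lower was 20 with TMM scaling and without a filter, 21 with DESeq2, 18 with a filter at 100 scaled reads, which left 29 members, and 14 with limma on the deposited log2 values. Calls over all genes, in either direction, also moved with the setting. DESeq2 called 6686 (53.4% of them higher), the filter at 100 gave 5899 of 12159 (54.9% higher) and limma called 6343 (49.6% higher). With the replicate block (the animal as a term) 22 members were called lower, where 23.9% of all genes were called lower. The block changed the call of no member other than Scn8a and Cacna1a. Of the related genes, Cntn1 and Rims2 were also called lower with the block, for 28 in place of 26. With total count scaling 24 members were called, adding Cacna1a, Cacng2, Scn2b and Scn8a, where 27.9% of all genes were called lower. That scaling moved the median of all genes from -0.01 to -0.09 and the share of calls that were higher from 52.2% to 41.6%, and the median of the members was -0.39. Leaving out each library in turn gave 14 to 24 members called, 18 to 30 related genes called and a median of -0.37 to -0.28. Over all genes these fits called 5536 (without the Input library of 208) to 7256 (without the Positive library of 208) in either direction. The low value of 14 came without the Input library of 208 and without the Positive library of 207. The same fits gave -0.15 to 0.075 for Cacng8, which changed sign without the Input library of 201 (0.061) and without the Positive library of 201 (0.035) or 207 (0.075). They gave -0.35 to 0.11 for Cacna2d2, above 0 without the Input library of 201 (0.11), and -0.22 to 0.00198 for Scn4b, above 0 without the Positive library of 207. None of these values passed the threshold. The mean over animals of the median ratio was -0.33 at a pseudocount of 0.1 and -0.32 at 5. The smallest change called among members was -0.24, with 3 samples per fraction.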
